A study of Mus musculus with 10 samples.

Results

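The linker histone genes of the mouse were followed in fetal oocytes of Taf4b-deficient and Taf4b-heterozygous mice. Linker histones of the H1 family sit on the DNA where it enters and leaves the nucleosome and help to fold the chromatin fibre. The members were taken by gene name: H1fx, H1f0, H1foo, Hist1h1a, Hist1h1b, Hist1h1c, Hist1h1d, Hist1h1e and Hist1h1t. These are 9 of the 55536 genes in the count table. Of the 9, 8 had enough counts to be tested, and H1foo did not.

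RNA was sequenced from oocytes of E16.5 fetal ovaries, 5 libraries from Taf4b-deficient and 5 from Taf4b-heterozygous animals, labelled as strain C57BL/6. Parents were heterozygous for the Taf4b-deficiency mutation and homozygous for an Oct4-EGFP transgene, which marks germ cells, and live GFP-positive cells were sorted by FACS. Every library of both groups is thus from transgenic cells, and the comparison group carries 1 mutant allele rather than being wild type. The labels give 3 litter dates. They leave unsaid whether each library is another embryo, and the p-values below therefore refer to library-to-library spread, which may be technical in part. TAF4b is a subunit of TFIID, the general factor that binds core promoters, and the comparison asks how oocyte RNA differs when it is deficient.

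Oocytes at this age are in meiotic prophase. The genes Hist1h1a to Hist1h1e encode the replication-dependent subtypes, made mainly in S phase. Their classical mRNAs carry no poly(A) tail and end just after a stem-loop that is bound by the stem-loop binding protein. H1f0 and H1fx encode replacement subtypes that are made outside S phase from polyadenylated mRNA. Hist1h1t encodes the subtype of male meiotic cells, and H1foo encodes the linker histone of growing oocytes and early embryos. How RNA was selected for these libraries is not given in the sources used here, which bears on how well tail-less mRNAs were captured.

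The stem-loop is shown because it separates the members by the kind of 3′ end their models hold. The letters below are from the GENCODE M21 transcripts on GRCm38, 5′ to 3′, with both arms of the stem in capitals and the loop in lower case.
Hist1h1a: GGCTCTtttcAGAGC
Hist1h1c: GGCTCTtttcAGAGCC
Hist1h1d: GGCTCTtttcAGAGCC
Hist1h1e: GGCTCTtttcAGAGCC
Hist1h1t: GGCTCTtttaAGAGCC
The Hist1h1a model ends 1 base before the stem closes, so its last letter is missing here. Hist1h1t differed from Hist1h1e by C10A, counted from the first base of the stem at its 5′ end. The letters were not found in the models of H1fx, H1f0, H1foo or Hist1h1b, the last of which extends little past its coding part. Over all genes, 40 of 55341 (0.0723%) had a transcript with these letters, and 35 of the 40 were histone genes.

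The models do not end where the stem-loop does. In the GENCODE models 53.8% of Hist1h1c, 65.8% of Hist1h1d, 59.7% of Hist1h1e and 20.3% of Hist1h1t lie after the stem-loop, whereas the RefSeq models of these genes end 4 or 5 bases after it. The GENCODE model of Hist1h1d also begins further upstream, at 23553262 against 23555032 in RefSeq. Counts of the longer models can hold reads from RNA that runs past the stem-loop or, for Hist1h1d, lies before the RefSeq start. The share of such reads was not measured, since the deposited counts are one value per gene.

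The 6 Hist1h1 members lie on chromosome 13 and share promoter words. RefSeq promoters of GRCm38.p6 were found for all 9 members. In the 250 bases before the start, searched on both strands, CCAAT was present in all 6 Hist1h1 members and in H1foo, against 33.8% of 32851 promoters. AAACACA, known as the H1 box, was present in Hist1h1b, Hist1h1c, Hist1h1d, Hist1h1e and Hist1h1t, against 6.25% of promoters, and not in Hist1h1a. TATAAA was present in Hist1h1a, Hist1h1b, Hist1h1d and Hist1h1e, against 12.4%. GGGCGG was present in Hist1h1a, Hist1h1b, Hist1h1e, Hist1h1t and H1fx, against 32.7%. H1fx and H1f0 held none of the first 3 words, and their windows had 75.2% and 74.4% G and C, against 47.6% to 56.8% in the other members. The 150 bases before the start are printed for 4 members that show these differences, 5′ to 3′ on the strand of the gene. Matches to the first 3 of these words on either strand are in capitals, matches to the fourth are left in lower case, and no match in capitals overlaps another.
Hist1h1a, chr13:23763518-23763667, plus strand: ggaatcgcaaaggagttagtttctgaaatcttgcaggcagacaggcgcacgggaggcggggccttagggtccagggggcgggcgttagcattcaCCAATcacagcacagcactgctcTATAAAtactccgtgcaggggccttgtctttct
Hist1h1b, chr13:21780626-21780775, minus strand: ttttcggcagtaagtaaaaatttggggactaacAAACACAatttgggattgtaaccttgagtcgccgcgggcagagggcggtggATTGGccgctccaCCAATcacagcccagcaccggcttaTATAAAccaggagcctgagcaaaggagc
Hist1h1c, chr13:23738657-23738806, plus strand: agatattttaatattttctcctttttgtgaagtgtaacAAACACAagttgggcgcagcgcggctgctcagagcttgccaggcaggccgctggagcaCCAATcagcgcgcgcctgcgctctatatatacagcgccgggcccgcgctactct
Hist1h1e, chr13:23622559-23622708, minus strand: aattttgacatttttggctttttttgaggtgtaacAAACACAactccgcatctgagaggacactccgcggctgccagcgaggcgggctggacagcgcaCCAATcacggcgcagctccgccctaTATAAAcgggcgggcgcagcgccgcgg
A match is a description of these letters and not a binding site.

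Total counts ran from 16707216 to 23680023 in deficient and from 18174863 to 26983565 in heterozygous libraries. Levels are CPM, counts scaled to a common library size with edgeR's TMM factors. Taf4b was at 80.7, 81.7, 80.2, 73.7 and 58.2 CPM in deficient libraries 1 to 5 and at 271, 290, 142, 65.7 and 101 CPM in heterozygous libraries 1 to 5. The library labelled heterozygous 4 therefore lay inside the deficient range, and Taf4b does not check its label. Hba-a1, the alpha-globin gene of red blood cells, was at 590 CPM in deficient 5. It was at 260 and 798 CPM in the libraries labelled heterozygous 4 and 5. It was between 36.1 and 91.4 CPM in the other deficient and between 24.0 and 102 CPM in the other heterozygous libraries. The summed germ cell markers ran from 4716 to 6442 CPM in deficient and from 5278 to 6893 CPM in heterozygous libraries, and were thus present in all 10. Their genotype difference is given below with the markers of other cells. In bulk RNA, fewer cells of a type and less RNA per cell cannot be told apart.

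All 8 tested members were higher on average in deficient oocytes, and no member passed the test. Without deficient 5, 6 of the 8 were. The test was edgeR's quasi-likelihood test on genotype alone, adjusted by Benjamini-Hochberg over 19244 genes and called under 0.05. It called 0 genes (0%), and 3190 (16.6%) had an unadjusted p under 0.05. The members' log2 fold changes, deficient over heterozygous, ran from 0.34 to 2.17 with a median of 0.86, while the median of all tested genes was -0.02 and 48.9% of them were positive. An unadjusted p under 0.05 with a higher level in deficient libraries was found for 5 of 8 members, namely H1fx, Hist1h1a, Hist1h1b, Hist1h1e and Hist1h1t, and for 7.45% of all tested genes. In 3 of 8 members, H1fx, Hist1h1a and Hist1h1b, every deficient library lay above every heterozygous one, as in 1.94% of tested genes.

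**Figure D1:**
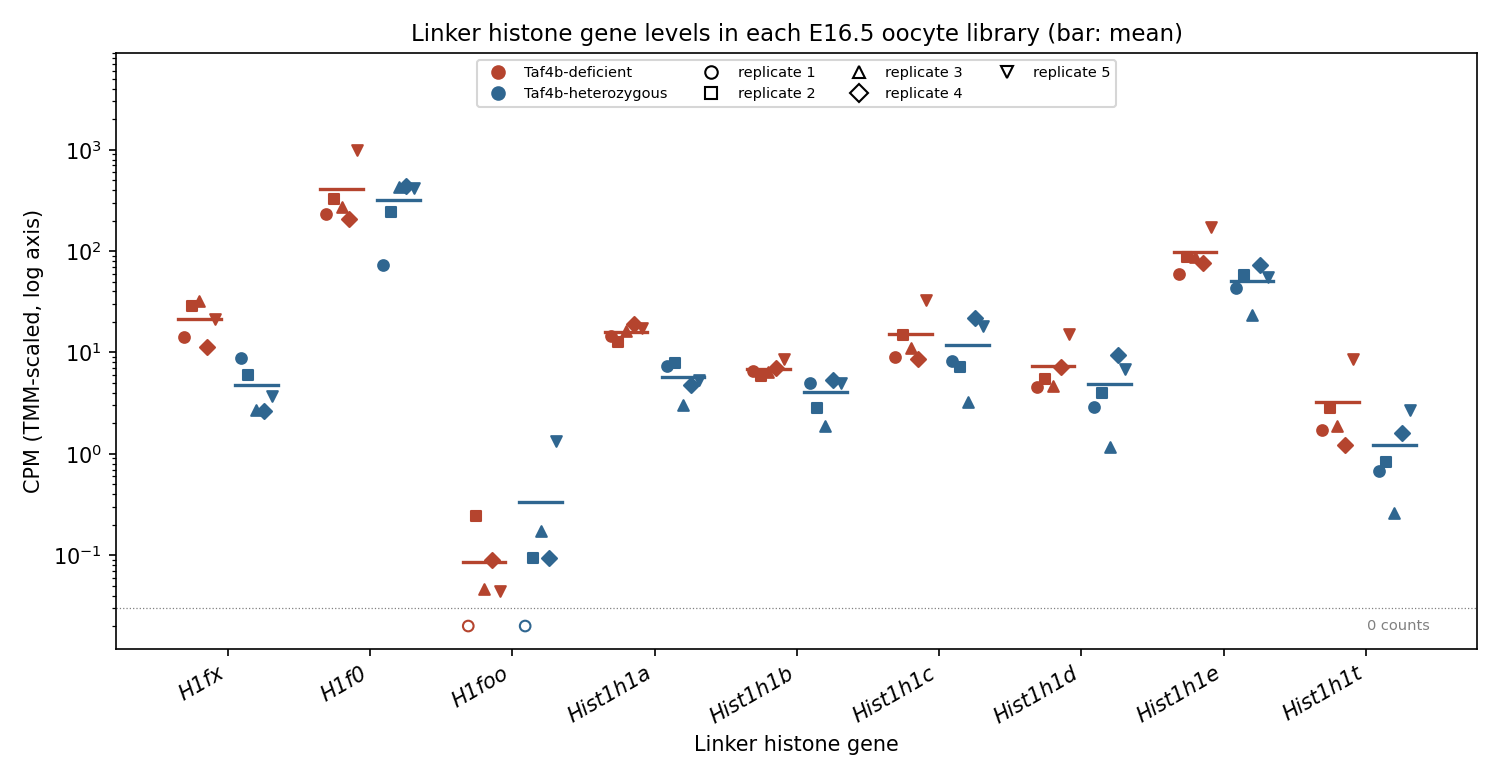
CPM of each linker histone gene (log axis) in the 5 Taf4b-deficient libraries, left in each pair, and the 5 Taf4b-heterozygous libraries, right. Symbols mark the replicate, bars the mean, and open symbols below the dotted line libraries with 0 counts. H1fx, Hist1h1a and Hist1h1b have groups that do not overlap, and deficient 5 tops its group for H1f0, Hist1h1b, Hist1h1c, Hist1h1d, Hist1h1e and Hist1h1t.

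H1fx (ENSMUSG00000044927, GRCm38 chromosome 6, 87980421 to 87981637, minus strand, 1 exon) encodes H1X, a replacement subtype named H1f10 in RefSeq. It was at 14.2, 28.5, 32.3, 11.4 and 21.2 CPM in deficient libraries 1 to 5 and at 8.82, 5.95, 2.72, 2.65 and 3.76 CPM in heterozygous libraries 1 to 5. The lowest deficient library was above the highest heterozygous one. The means were 21.5 ± 8.96 CPM in deficient and 4.78 ± 2.62 CPM in heterozygous oocytes (SD, n = 5 each). The log2 fold change was 2.17 ± 0.40 (SE), the largest of the members, and 10 of the 19244 genes had a smaller p, yet edgeR's adjusted p was 0.113. On the opposite strand the gene Gm5577 shares 164 words of 50 bases with H1fx, 14% of those in the H1fx transcript, and whether the counting used strand is not given in the sources used here. Gm5577 was at 4.65 ± 0.97 CPM in deficient and 4.58 ± 0.84 CPM in heterozygous libraries (SD, n = 5 each), with a log2 fold change of 0.02 ± 0.25 (SE, edgeR adjusted p = 0.976).

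Hist1h1a (ENSMUSG00000049539, chromosome 13, 23763666 to 23764406, plus strand, 1 exon) encodes the replication-dependent subtype H1.1. It had the smallest p of the members. Its levels were 14.7, 12.8, 16.3, 19.2 and 17.3 CPM in deficient libraries 1 to 5 and 7.33, 7.95, 3.03, 4.73 and 5.40 CPM in heterozygous libraries 1 to 5. The groups did not overlap, and the deficient libraries lay within 1.504-fold of one another while the heterozygous ones spanned 2.63-fold. The means were 16.05 ± 2.46 CPM in deficient and 5.69 ± 1.99 CPM in heterozygous oocytes (SD, n = 5 each), with a log2 fold change of 1.496 ± 0.27 (SE, edgeR adjusted p = 0.113).

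Hist1h1b (ENSMUSG00000058773, chromosome 13, 21779883 to 21780625, minus strand, 1 exon) encodes the replication-dependent subtype H1.5. It was at 6.60, 5.89, 6.47, 6.996 and 8.71 CPM in deficient libraries 1 to 5 and at 5.03, 2.84, 1.90, 5.39 and 4.99 CPM in heterozygous libraries 1 to 5. The groups did not overlap, but the gap was narrow, from 5.89 CPM in the lowest deficient to 5.39 CPM in the highest heterozygous library. The log2 fold change was 0.78 ± 0.30 (SE, edgeR adjusted p = 0.236).

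Hist1h1e, which encodes the replication-dependent subtype H1.4, had the most counts of the chromosome 13 members (ENSMUSG00000051627, 23620629 to 23622558, minus strand, 1 exon). Its levels were 59.3, 87.7, 86.9, 76.3 and 175 CPM in deficient libraries 1 to 5 and 43.6, 58.8, 23.5, 72.5 and 55.3 CPM in heterozygous libraries 1 to 5. Of the deficient libraries 4 were above all heterozygous ones, and deficient 1 lay among them. The log2 fold change was 0.93 ± 0.33 (SE, edgeR adjusted p = 0.198), and without deficient 5 it was 0.60. On the same strand the model of Hist1h1e shares 23.8% of its 50-base words with Hist1h2be and 14.4% with Gm11398, so reads from those parts are of uncertain origin. Hist1h2be was at 4.22 ± 3.88 CPM in deficient and 2.00 ± 1.42 CPM in heterozygous libraries (SD, n = 5 each), and Gm11398 was at 0 in every library.

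Hist1h1c and Hist1h1d, for the replication-dependent subtypes H1.2 and H1.3, overlapped between genotypes. Hist1h1c (ENSMUSG00000036181, chromosome 13, 23738808 to 23740367, plus strand, 1 exon) was at 8.92, 14.8, 11.2, 8.71 and 32.8 CPM in deficient libraries 1 to 5 and at 8.24, 7.16, 3.24, 21.9 and 18.1 CPM in heterozygous libraries 1 to 5. Hist1h1d (ENSMUSG00000052565, chromosome 13, 23553262 to 23560686, plus strand, 1 exon) was at 4.599, 5.52, 4.65, 7.18 and 15.2 CPM in deficient libraries 1 to 5 and at 2.87, 4.00, 1.17, 9.46 and 6.82 CPM in heterozygous libraries 1 to 5. For both genes deficient 5 was the highest deficient library, and the libraries labelled heterozygous 4 and 5 were the highest heterozygous ones, and these are the 3 libraries high for Hba-a1. The log2 fold changes were 0.38 ± 0.50 for Hist1h1c and 0.61 ± 0.50 for Hist1h1d (SE), with edgeR adjusted p of 0.729 and 0.558. Without deficient 5 they were -0.13 and 0.16. Hist1h1c shares 6.95% of its 50-base words with Hist1h1d and 6.42% with Hist1h1e, so counts in those stretches may be split among them.

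Hist1h1t (ENSMUSG00000036211, chromosome 13, 23695814 to 23696725, plus strand, 1 exon), the subtype known from spermatocytes, was low. It was at 1.72, 2.82, 1.86, 1.22 and 8.62 CPM in deficient libraries 1 to 5 and at 0.671, 0.837, 0.259, 1.61 and 2.70 CPM in heterozygous libraries 1 to 5. Only 2 deficient libraries were above every heterozygous one, and the range was 7.07-fold within deficient and 10.4-fold within heterozygous libraries. The log2 fold change was 1.42 ± 0.64 (SE, edgeR adjusted p = 0.286), and without deficient 5 it was 0.62.

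H1f0 (ENSMUSG00000096210, chromosome 15, 79028450 to 79030504, plus strand, 1 exon), for the replacement subtype H1.0 that is known to build up in differentiated cells, had the most counts of the members. It was at 233, 326, 271, 208 and 996 CPM in deficient libraries 1 to 5 and at 73.0, 245, 429, 440 and 418 CPM in heterozygous libraries 1 to 5. Deficient 5 was far above the other deficient libraries, and heterozygous 1 was the lowest heterozygous one. Only deficient 5 stood apart by Dixon's test, given further below. Of the deficient libraries 1 was above the heterozygous median. The means were 407 ± 332 CPM in deficient and 321 ± 160 CPM in heterozygous oocytes (SD, n = 5 each), and the log2 fold change was 0.34 ± 0.50 (SE, edgeR adjusted p = 0.762). Without deficient 5 it was -0.32, without the 3 libraries high for Hba-a1 it was 0.05 and without heterozygous 1 it was 0.09. The direction for H1f0 was thus not settled by these libraries.

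H1foo (ENSMUSG00000042279, chromosome 6, 115944938 to 115950236, plus strand, up to 6 exons), the linker histone of growing oocytes, was near the limit of detection. Its counts were 0, 4, 1, 2 and 1 in deficient libraries 1 to 5 and 0, 2, 4, 2 and 29 in heterozygous libraries 1 to 5. Heterozygous 5 stood apart at 1.33 CPM. A count of 0 allows up to 3 counts, 0.139 CPM in deficient 1 and 0.144 CPM in heterozygous 1, for counting error only. No fold change is given. With a filter of at least 10 counts in all, H1foo entered the fit, in which edgeR called 0 of 31181 genes.

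**Figure D2:**
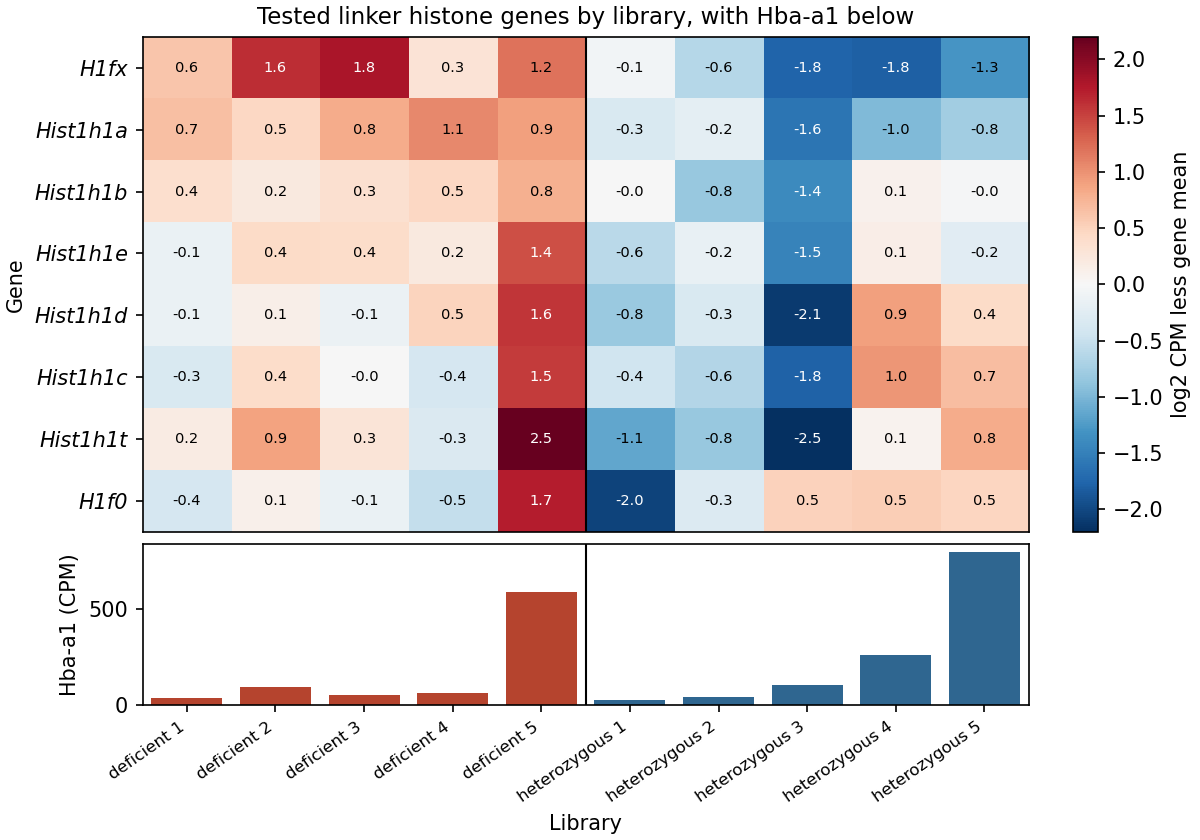
Log2 CPM of the 8 tested linker histone genes less each gene's mean over the 10 libraries, deficient left of the line and heterozygous right, with Hba-a1 CPM as bars below. H1fx and Hist1h1a follow genotype in all 10 libraries, while Hist1h1c, Hist1h1d, Hist1h1t and H1f0 are high in deficient 5, and heterozygous 3 is the lowest library for 6 of the 8 genes.

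The members differed in their pattern over the libraries. The distance between patterns was taken as the root mean square difference of centred log2 CPM over the 10 libraries, as a description. Among members it was smallest between Hist1h1c and Hist1h1d, at 0.36, and largest between H1fx and H1f0, at 1.61. The distance of H1fx from Hist1h1a was 0.65 and from Hist1h1e 0.97. The 10 values share library depth and composition.

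The libraries high for Hba-a1 changed the separation of the genotypes. Without deficient 5 and the libraries labelled heterozygous 4 and 5, every deficient library lay above every heterozygous one in 7 of 8 members, all but H1f0, as in 6.15% of tested genes. In that smaller set, 4 deficient against 3 heterozygous libraries, edgeR called 0 genes and 0 members. Hist1h1c was then at 10.9 ± 2.82 CPM in deficient and 6.21 ± 2.63 CPM in heterozygous libraries (SD, n = 4 and 3), with a log2 fold change of 0.81 ± 0.35 (SE, edgeR adjusted p = 0.371). Hist1h1d was at 5.49 ± 1.20 and Hist1h1t at 1.91 ± 0.67 CPM in deficient libraries, against 2.68 ± 1.43 and 0.589 ± 0.297 CPM in heterozygous libraries. Their log2 fold changes were 1.04 ± 0.40 and 1.69 ± 0.51 (SE, edgeR adjusted p = 0.344 and 0.288). For H1fx and Hist1h1a they were 1.89 ± 0.45 and 1.37 ± 0.34 (SE, edgeR adjusted p = 0.285 for both). The part of red blood cell RNA in the values of the 3 libraries high for Hba-a1 was not tested. These libraries also had the lowest sums for the histone mRNA and DNA replication lists described below. The part of that difference was not tested either. The Taf4b level of the library labelled heterozygous 4 lay inside the deficient range. Leaving out that library alone gave 2.02 for H1fx and 1.44 for Hist1h1a (edgeR adjusted p = 0.296 for both). The median over the 8 members was then 1.06.

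Whether H1fx and Hist1h1a were called depended on the model. DESeq2 called both (adjusted p = 0.000118 and 0.000129) among 679 of 20289 genes (3.35%, and 1.19% as higher). The authors' deposited DESeq2 fold changes are rebuilt by a covariate with 3 levels, a grouping of the libraries derived here from those values and matching the litter dates of the labels in 6 of 10 libraries. With that covariate, edgeR called both (adjusted p = 0.0326 and 0.0352) among 104 genes (0.54%, and 0.369% as higher). Without heterozygous 1 it called both as well (adjusted p = 0.0334 and 0.0350) among 606 of 19766 genes (3.07%, and 1.42% as higher). With the litter date of the labels in the model instead, edgeR called 0 genes and 0 members, and H1fx and Hist1h1a had an adjusted p of 0.0767. Neither DESeq2 nor the edgeR fits with the grouping or without heterozygous 1 called another member. The third level of the grouping is made up of the 3 libraries high for Hba-a1.

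**Figure D3:**
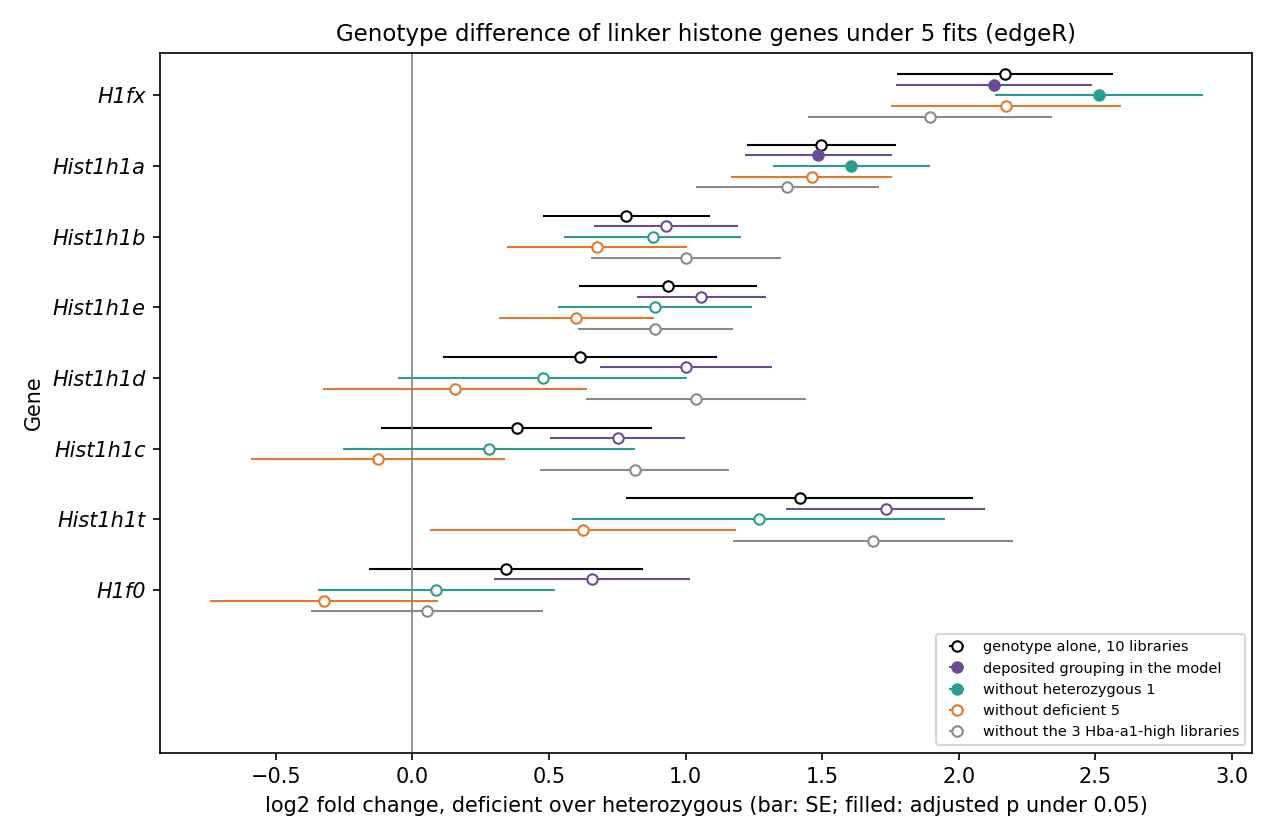
Log2 fold change, deficient over heterozygous, with its standard error for the 8 tested genes under 5 edgeR fits, filled where the adjusted p was under 0.05. H1fx and Hist1h1a are filled in the fit lacking heterozygous 1 and under the model with the derived grouping. The legend names that model by the deposited fold changes from which the grouping was derived. Without deficient 5 the values of Hist1h1c and H1f0 turn negative, at -0.13 and -0.32.

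The authors' deposited table lists all 9 members and calls 6, all as higher in deficient oocytes, against 6.55% of 17881 genes called and 3.2% called as higher. It rests on the same libraries and is not separate evidence. In the authors' deposited table the log2 fold changes of the called members were 2.12 for H1fx, 1.47 for Hist1h1a, 1.73 for Hist1h1t, 1.04 for Hist1h1e, 0.91 for Hist1h1b and 0.99 for Hist1h1d. For the members it does not call, the authors' deposited table gives 0.74 for Hist1h1c (adjusted p = 0.0581), 0.64 for H1f0 (adjusted p = 0.253) and -0.91 for H1foo, with no adjusted p.

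H1fx and Hist1h1a were higher in deficient oocytes on each litter date. The differences in mean log2 CPM, deficient minus heterozygous, were 0.97, 3.49 and 2.04 for H1fx and 0.94, 1.92 and 1.75 for Hist1h1a on the first, the second and the third date. Each date holds 1 or 2 libraries per genotype. Of the 8 tested members, 6 were positive on all 3 dates, and the share of all tested genes doing so was not counted. The exceptions were H1f0, at 0.80, -0.54 and 0.12, and Hist1h1c, at 0.22, 0.60 and -0.10. A test of genotype by litter date called 0 genes with edgeR (356 with an unadjusted p under 0.05), and the adjusted p of every tested member was 1.00. For H1fx its unadjusted p was 0.0127. By level of the grouping derived from the deposited fold changes, the differences were 1.19, 2.25 and 2.74 for H1fx. They were 0.90, 1.84 and 1.77 for Hist1h1a. Among the tested members only H1f0, at -0.45 on the second level, was negative.

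**Figure D4:**
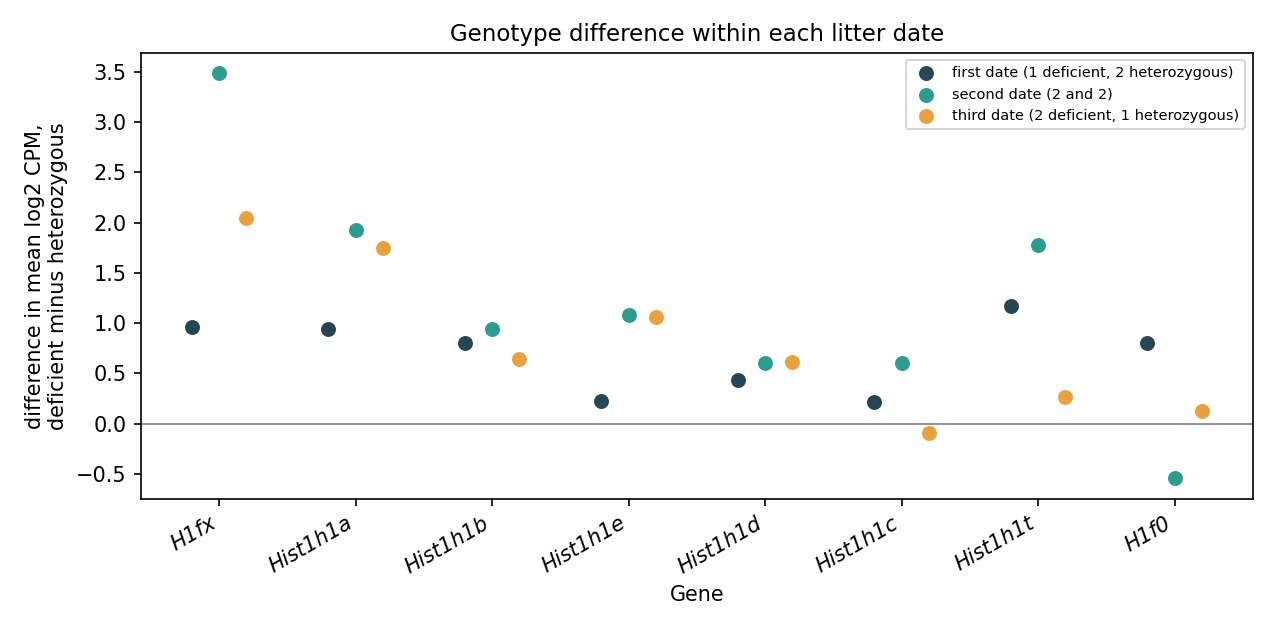
Difference in mean log2 CPM, deficient minus heterozygous, for the 8 tested genes on each of 3 litter dates, with 1 or 2 libraries per genotype and date. H1fx and Hist1h1a stay above 0.9 on every date, and the points below 0 are H1f0 on the second and Hist1h1c on the third date.

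The levels of the 9 members were compared with one another per length. The deposited TPM of 20977 of 20977 genes checked equalled the count divided by 1 constant length per gene and rescaled, to a tolerance of 1e-06, so TPM holds no measurement beyond the counts. Relative to the median gene, the length behind TPM was 9.17 times the GENCODE model for Hist1h1a and Hist1h1b, 8.52 times for Hist1h1t and 0.58 times for H1fx. On the TPM scale the order over the 10 libraries was H1f0 at 218, Hist1h1e at 46.4, H1fx at 21.8, Hist1h1c at 12.1, Hist1h1a at 1.91, Hist1h1d at 1.15, Hist1h1b at 0.984, Hist1h1t at 0.368 and H1foo at 0.421 TPM, ranked by mean log2(TPM + 0.1). By a two-sided exact sign-flip permutation test within libraries, adjusted over the 8 neighbouring pairs, 5 pairs differed. H1fx and Hist1h1c (adjusted p = 0.185), Hist1h1d and Hist1h1b (0.906) and Hist1h1t and H1foo (0.578) did not differ beyond their spread. A constant length shifts a gene alike in every library, so these results hold only for the TPM lengths. Hist1h1c was above Hist1h1a in 10 of 10 libraries on the TPM scale. With RefSeq lengths it was above in 6 of 10 (adjusted p = 0.433, same test). With GENCODE lengths Hist1h1a ranked 3 and Hist1h1c 5.

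The middle of the order moved with the length used. In CPM per kilobase of the RefSeq model, with the GENCODE exons for H1foo, H1f0 was at 159, Hist1h1e at 94.4, Hist1h1c at 18.6, Hist1h1a at 14.6, H1fx at 12.4, Hist1h1d at 7.92, Hist1h1b at 6.90, Hist1h1t at 3.04 and H1foo at 0.176. With these lengths 3 of 8 neighbouring pairs differed by the same exact test, and H1f0 was not separated from Hist1h1e (higher in 8 of 10 libraries, adjusted p = 0.0781). By mean level H1f0 was first and Hist1h1e second with all 3 sets of lengths. H1foo was last in CPM per kilobase of either model, but on the TPM scale its mean was above that of Hist1h1t. On the RefSeq scale H1f0 made up 42.6 ± 7.63% of the summed linker histone level in deficient and 53.8 ± 19.996% in heterozygous libraries (SD, n = 5 each), and Hist1h1e 33.3 ± 3.68% and 28.1 ± 11.6%. Hist1h1a made up 6.65 ± 2.75% in deficient and 3.70 ± 2.57% in heterozygous libraries, and H1fx 5.99 ± 2.87% and 2.40 ± 2.39%. The ranges of the genotypes overlapped for each of these 4 shares. The shares depend on the lengths. The RefSeq scale divides the deposited counts by models that are much shorter than the GENCODE ones for Hist1h1c, Hist1h1d and Hist1h1e. Any counted reads from outside the RefSeq models raise these genes on that scale, and their share was not measured. With the deposited TPM, H1f0 made up 63.4 ± 7.73% in deficient and 73.0 ± 17.4% in heterozygous libraries, Hist1h1e 18.4 ± 3.35% and 15.5 ± 8.72%, H1fx 12.4 ± 5.75% and 5.33 ± 6.24% and Hist1h1a 1.04 ± 0.50% and 0.58 ± 0.50%. With the GENCODE models, H1f0 made up 59.7 ± 8.29% in deficient and 69.96 ± 18.4% in heterozygous libraries and Hist1h1e 17.1 ± 2.54% and 14.4 ± 7.61%.

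**Figure D5:**
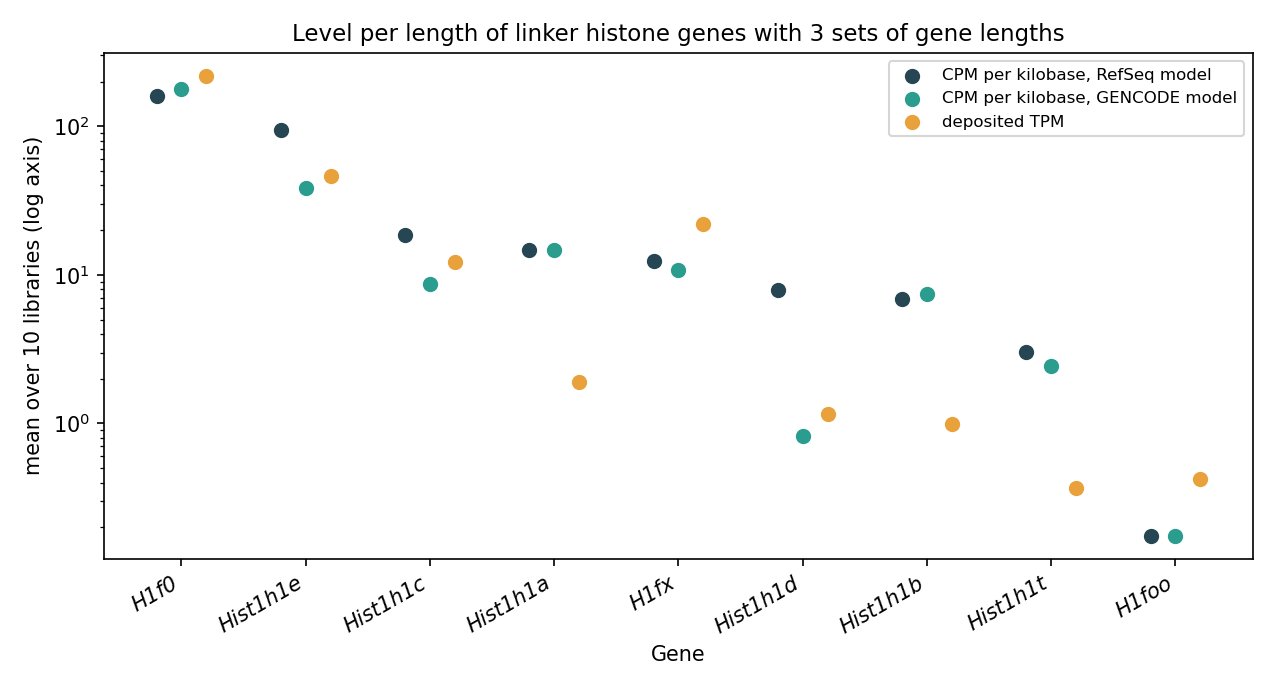
Mean level per length of the 9 linker histone genes over the 10 libraries (log axis), with lengths from the RefSeq models, the GENCODE models and the deposited TPM. H1f0 and Hist1h1e lead on all 3 scales, while Hist1h1a ranks between the third and the fifth place and Hist1h1d between the sixth and the eighth.

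Genes whose pattern was close to that of Hist1h1a, among 13539 genes with a mean log2 CPM of at least 1, were BC048679, Hist1h4k, Gm43077 and Caskin1. Their root mean square difference from Hist1h1a over the 10 libraries was 0.33 to 0.38, against a median of 0.97 over all candidates and 0.54 for the nearest member, Hist1h1b. Hist1h4k, a gene for histone H4, was at 4.84 ± 1.42 CPM in deficient and 1.71 ± 0.61 CPM in heterozygous libraries (SD, n = 5 each). Nearest to H1f0 were Hist1h2ac, Ldb3, Gm12260, Hist4h4 and 4930473A02Rik, at 0.25 to 0.42. Hist1h2ac, a gene for histone H2A, was at 3.02 ± 2.28 CPM in deficient and 2.11 ± 0.97 CPM in heterozygous libraries (SD, n = 5 each).

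The replication-dependent core histone genes, which build the nucleosome that H1 binds, were also mostly higher in deficient oocytes without passing the test. Of 63 genes, 46 were tested and 0 were called. Of the 46, 43 had a positive log2 fold change, with a median of 0.73, and 48.9% of all tested genes were positive. An unadjusted edgeR p under 0.05 was found for 9 as higher, against 7.45% of all tested genes, and for 0 as lower. Hist1h4k had the smallest p of the list, with a log2 fold change of 1.504 ± 0.34 (SE, edgeR adjusted p = 0.116), and was higher in 5 of 5 deficient libraries than in every heterozygous one. Hist1h4d, for histone H4, had the highest mean CPM of the list, not scaled for length, at 329 ± 72.1 CPM in deficient and 209 ± 115 CPM in heterozygous libraries (SD, n = 5 each; log2 fold change 0.65 ± 0.39, SE; edgeR adjusted p = 0.408). Summed over the list, core histone genes ran from 464 to 844 CPM in deficient and from 213 to 517 CPM in heterozygous libraries. Hist1h4d alone makes up a large part of these sums.

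Genes that act on histone mRNA, on linker histones or in replication had median changes nearer to that of all tested genes. Of 18 genes of histone mRNA transcription and 3′ end processing 11 were positive, with a median log2 fold change of 0.16 and 0 called. Their summed level was lowest in the libraries high for Hba-a1. It was 1895 CPM in deficient 5 and 1749 and 1679 CPM in the libraries labelled heterozygous 4 and 5. The other libraries had 2469 to 3199 CPM in deficient and 2705 to 3547 CPM in heterozygous oocytes. Lsm10, a protein of the U7 particle that cuts histone mRNA, was at 16.48 ± 4.86 CPM in deficient and 28.9 ± 12.5 CPM in heterozygous libraries (SD, n = 5 each; log2 fold change -0.81 ± 0.30, SE; edgeR adjusted p = 0.214). Nelfe, of the elongation factor NELF, had the highest mean CPM of its list, with a log2 fold change of -0.04 ± 0.24 (SE). Of 16 linker histone chaperones and competitors 10 were positive, with a median of 0.14 and 0 called. Hmgn2, a nucleosome-binding protein that competes with H1, was at 117 ± 12.3 CPM in deficient and 205 ± 89.4 CPM in heterozygous libraries (SD, n = 5 each; log2 fold change -0.81 ± 0.27, SE; edgeR adjusted p = 0.189). Npm1, a histone chaperone, had a log2 fold change of 0.55 ± 0.27 (SE, edgeR adjusted p = 0.320).

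Of 18 genes of DNA replication and proliferation 5 were positive, with a median of -0.10 and 0 called. Their summed level was also lowest in the libraries high for Hba-a1. It was 2075 CPM in deficient 5 and 1932 and 1679 CPM in the libraries labelled heterozygous 4 and 5. The other libraries had 2779 to 3245 CPM in deficient and 2983 to 4262 CPM in heterozygous oocytes. Mki67, a marker of cycling cells, was at 173 ± 45.2 CPM in deficient and 84.8 ± 37.2 CPM in heterozygous libraries (SD, n = 5 each; log2 fold change 1.03 ± 0.32, SE; edgeR adjusted p = 0.167). Mcm5, of the replicative helicase, had the highest mean CPM of its list, with a log2 fold change of -0.31 ± 0.34 (SE).

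Markers of other cells differed between libraries as well, and none was called. The 9 erythroid markers summed to 107 to 1606 CPM in deficient and to 65.8 to 2084 CPM in heterozygous libraries. The 8 pregranulosa markers summed to 28.2 to 99.5 CPM in deficient and to 37.3 to 90.7 CPM in heterozygous libraries, and the 7 ovarian stroma markers to 19.9 to 95.4 and 15.9 to 62.3 CPM. The 6 macrophage markers summed to 43.3 to 125 and 92.1 to 162 CPM, the 6 endothelial markers to 14.0 to 65.5 and 17.2 to 93.7 CPM and the 5 surface epithelium markers to 13.8 to 42.9 and 18.4 to 39.2 CPM, each time with the deficient libraries given before the heterozygous. No marker was at 0 in all libraries. Of the tested erythroid and macrophage markers 0 of 6 were positive in either list, with median log2 fold changes of -0.48 and -0.34. Of the others, 6 of 8 pregranulosa, 6 of 7 stroma, 5 of 6 endothelial and 2 of 5 surface epithelium markers were positive, with medians of 0.28, 0.51, 0.21 and -0.39. The genes with the smallest p of these lists were Alas2 (log2 fold change -0.80 ± 0.84, SE) for erythroid cells, Cd68 (-0.44 ± 0.25) for macrophages, Fst (1.23 ± 0.46) for pregranulosa cells, Col1a1 (1.12 ± 0.66) for stroma and Upk3b (-1.25 ± 0.63) for surface epithelium. In the endothelial list it was Pecam1 (-1.16 ± 0.43), the 1 member of that list with a negative value. Of 7 tested germ cell markers 1 was positive and 6 were negative, with a median of -0.28 and 0 called. Ddx4 had the smallest p of the germ cell list (log2 fold change -0.38 ± 0.21, SE, edgeR adjusted p = 0.375). The part of any of these cell types in the linker histone values was not tested.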

How the data were processed

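The authors deposited raw counts for each gene. The submitters' processing notes name the build GRCm38 and the tools HISAT2 2.1.0, Trim Galore 0.5.0, featureCounts (Subread 1.6.2) and StringTie 1.3.3b. StringTie is named for TPM, per the file headers. The TPM values checked equalled the deposited counts over a constant length per gene, rescaled, so which tool computed them is uncertain. The authors' deposited DESeq2 table gives, per the file headers, a mean normalized signal, p-values, the Wald statistic (a score) and a log2 fold change with its error. The value of Taf4b showed that its fold changes run deficient over heterozygous.

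Counts were fitted with edgeR 4.0.16 (glmQLFit, glmQLFTest, TMM, filterByExpr) in R 4.3.3 on genotype alone, using all 10 libraries. SE was taken as |log2 fold change| over the root of the F statistic. The steps were tested on simulated data. Alternatives used DESeq2 1.42.0, limma 3.58.1, other scalings and filters, covariates and left-out libraries. The members and lists were chosen with earlier results of these data known. The rule for named genes took all 9 members, the 5 nearest patterns of the member with the smallest p and of the tested member with the highest mean TPM, the genes with the smallest p and with the highest mean CPM of each list, and Taf4b and Hba-a1. Of the genes this rule names, 1 is not reported here. Within-date values are differences of log2 CPM with an offset of 0.5 counts. Motifs and 50-base words were searched in RefSeq promoters and GENCODE M21 transcripts. Intervals of depth cover counting error only, because the reads carry no stated molecular identifiers.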

Additional observations from a re-analysis of the deposited data

Results flagged for a closer look

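Deficient 5 lay far above the other deficient libraries for most members. By Dixon's test for 5 samples, with a critical value of 0.71 for the gap over the range, it stood apart for H1f0 at 996 CPM and 642 TPM and for Hist1h1e at 175 CPM and 120.5 TPM. The same held for Hist1h1c at 32.8 CPM and 31.4 TPM, for Hist1h1d at 15.2 CPM and 3.05 TPM and for Hist1h1t at 8.62 CPM and 1.51 TPM. Hist1h1b stood apart in deficient 5 at 1.75 TPM and not on the CPM scale. H1fx and Hist1h1a did not. Hba-a1 was at 590 CPM in this library, against 36.1 to 91.4 CPM in the other deficient ones, and its part in these values was not tested.

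Among heterozygous libraries, H1foo stood apart in heterozygous 5 at 1.33 CPM and 2.80 TPM, from 29 counts against 0 to 4 in the others. Hba-a1 was at 798 CPM in that library. In all, 13 of 36 groups of 5 values stood apart. For independent, normally distributed values about 1 in 20 such groups would do so by chance. Here the CPM and TPM of a gene come from the same counts, and the genes share libraries, most flags being deficient 5. The 13 of 36 can therefore not be read against that share.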

How the results depend on the processing

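On genotype alone edgeR called 0 genes and 0 linker histone genes. DESeq2 called 679 genes and 2 members, H1fx at a log2 fold change of 2.16 and Hist1h1a at 1.48. With the grouping in the model edgeR called 104 genes and 2 members, at 2.13 and 1.49. That grouping was derived from the authors' deposited fold changes and is not given in the labels. Bias-adjusted deviances, chosen after seeing the data, called 3 genes and 0 members. With the replicate number as a block, 1 gene and 0 members were called. The correlations of same-numbered libraries were 0.16, 0.02, 0.11, -0.23 and 0.57, and only the libraries numbered 1 correlated best with their own number. The pairs numbered 1, 3 and 5 share a litter date and those numbered 2 and 4 do not, so the numbers as a whole were not taken as pairs. The litter date in the model called 0 genes. Leaving out each library in turn gave 0 to 606 genes and 0 to 2 members called. The calls came without heterozygous 1 (606 genes, with H1fx at 2.51 and Hist1h1a at 1.61) and without heterozygous 2 (1 gene).

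Over the same left-out libraries the log2 fold changes ranged from 1.98 to 2.51 for H1fx, from 1.33 to 1.64 for Hist1h1a, from 0.60 to 0.91 for Hist1h1b, from 0.60 to 1.11 for Hist1h1e, from 0.62 to 1.95 for Hist1h1t, from 0.16 to 1.01 for Hist1h1d, from -0.13 to 0.74 for Hist1h1c and from -0.32 to 0.51 for H1f0. The negative values of Hist1h1c and H1f0 came without deficient 5, and the cause was not tested. Of the 8 neighbouring pairs in the order by level, 5 differed on the TPM scale, 3 with RefSeq lengths, chosen after seeing the data, 4 with log2(TPM + 1), 6 per kilobase of the GENCODE models, where 1 neighbouring pair was as on the TPM scale, and 4 to 6 with a library left out. The low counts of H1foo and Hist1h1t limit what can be said of them.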

Other observations

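The linker histone genes of spermatids outside the 9 members were close to 0. Hils1 had 1 count in the library labelled heterozygous 4 and 0 in the others. H1fnt had 12, 3, 1, 3 and 0 counts in deficient libraries 1 to 5 and 0, 5, 0, 1 and 3 counts in heterozygous libraries 1 to 5. Neither was tested.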
